A study of Mus musculus with 6 samples.

Results

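The expression of 10 genes that neurons switch on with activity was examined in the hippocampus of p300-ifKO mice and control littermates: the zinc finger transcription factor genes Egr1, Egr2, Egr3 and Egr4, the orphan nuclear receptor genes Nr4a1, Nr4a2 and Nr4a3, the neuronal transcription factor gene Npas4, the synaptic effector gene Arc and the immediate early gene Ier2. They were taken by name as activity-induced genes outside the AP-1 family, and all 10 were found among the 55471 genes of the count table. RNA-seq was performed on 6 male C57BL/6 mice (C57BL/6J in the methods) aged 3 to 6 months, with 1 library per mouse, 3 in each group. p300-ifKO mice (inducible forebrain knockouts) carried floxed Ep300, the gene for the lysine acetyltransferase p300, and the Camk2a-creERT2 driver. All mice of both groups received 5 administrations of tamoxifen at 20 mg/mL. By the protocol, controls were littermates without creERT2, given tamoxifen as well. The control libraries are described with the name of the driver, but Esr1, part of which the creERT2 transgene carries, was at 87.2 to 109 normalized counts in controls and at 2416 to 4217 in p300-ifKO mice. Since the Camk2a promoter restricts recombination to excitatory forebrain neurons, RNA from interneurons, glia and vessels came from cells with intact Ep300. No stimulation or behavioural test is given for these mice.

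Activity genes are transcribed within minutes of synaptic input, when calcium entry and kinase cascades act on factors that are already bound to their promoters and enhancers, such as CREB, SRF with its ELK partners, and MEF2. p300 and its paralog CBP are coactivators that such factors recruit. EGR, NR4A and NPAS4 proteins are themselves transcription factors and drive later waves of transcription, whereas Arc protein acts at the synapse, where it promotes the removal of AMPA receptors. The transcripts are short-lived, so their level in the unstimulated hippocampus can follow the recent experience of the animal.

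Libraries held between 23151568 and 28433823 counts. Levels of a gene are given as normalized counts, which are scaled for the depth of the library, and differences as log2 fold changes of p300-ifKO over control. Esr1 (log2 fold change 4.96) and Arsi (2.56), genes carried or affected by the creERT2 transgene, were the 2 genes with an adjusted p under 0.05 in DESeq2 (2 of 32773, or 0.0061%). Ep300 had 1545, 1474 and 2334 normalized counts in control mice and 478, 1350 and 912 in p300-ifKO mice, with a log2 fold change of -0.97 ± 0.33 (SE) and an adjusted p of 0.991 in DESeq2. The groups did not overlap for Ep300. The libraries also differed in how counts ran with transcript length. The rank correlation, across genes, of transcript length with the deviation from the mean library was -0.51 in p300-ifKO 1 and -0.28 in p300-ifKO 3, and between 0.16 and 0.42 in the other 4 libraries. Group differences, spread and covariation of the activity genes are therefore also given after each library had been corrected for length and GC content by smooth offsets. With these offsets Ep300 had a log2 fold change of -0.83 (unadjusted p = 0.000266, DESeq2) and was not called. The part of the length trend in each result was not tested. All 8 listed markers of excitatory neurons and all 8 of dentate granule cells were expressed, with summed normalized counts of 177418 to 199668 and 11130 to 12837 in control mice and 179890 to 201552 and 11083 to 11624 in p300-ifKO mice. No listed marker of these or of 7 other cell types was at 0. In such tissue, fewer cells of a type and less RNA per cell cannot be told apart. The summed markers of microglia were between 7850 and 8571 normalized counts in control and between 8699 and 9778 in p300-ifKO mice, and those of astrocytes between 106899 and 110583 and between 93782 and 105723, without overlap of the groups in either list. Sums weigh abundant genes most, such as Slc1a2 (mean 65436) among astrocyte markers. Taken singly, only Slc1a3 of the astrocyte markers, lower, and Csf1r of the microglial ones, higher, had groups that did not overlap. In the other lists this held for the dentate granule cell markers Plk5 and Lct, higher, and Stxbp6, lower. It also held for the interneuron marker Gad1 and the endothelial marker Pecam1, both lower. Of all genes, 3.37% lay wholly below control and 4.09% wholly above. The astrocyte and microglial markers did not move as 1: Gfap (log2 fold change 0.17) and Aldh1l1 (0.00) did not share the direction of the astrocyte sum, nor Cx3cr1 (-0.09) and P2ry12 (-0.02) that of the microglial sum. None of the 9 marker lists held a gene called by DESeq2 with all 6 libraries. Without p300-ifKO replicate 2, the calls were 1 excitatory neuron, 2 dentate granule cell, 2 interneuron, 1 microglial and 1 endothelial marker. That fit called 938 genes in the whole table, of 11129 that had an adjusted p among 32019 tested. The part of cell composition in the values of the activity genes was not tested.

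Promoter sequences were at hand for 6 of the 10 genes (RefSeq, GRCm38.p6), namely Egr2, Egr4, Nr4a1, Nr4a2, Nr4a3 and Npas4. They are shown because all 6 windows of 250 bases before the RefSeq start of transcription held TGACG on either strand. TGACG is the core of the cAMP response element (CRE), to which CREB binds. The core was present in 17.77% of 32851 promoter windows of the same length. The motifs were chosen after these sequences had been read. The stretches are given 5′ to 3′ on the strand of the gene, with the CRE core (TGACG or its complement CGTCA) and the single CArG box in capitals: Egr2 (chr10:67537619-67537868, plus strand), Egr4 (chr6:85513590-85513839, minus strand), Nr4a1 (chr15:101266596-101266845, plus strand), Nr4a2 (chr2:57124004-57124253, minus strand), Nr4a3 (chr4:48045055-48045152, plus strand) and Npas4 (chr19:4990129-4990157, minus strand). For Nr4a3 and Npas4, whose windows run into annotated exons, only the stretches with 3 of 4 and 2 of 2 cores are printed. The printed stretch of Nr4a3 lies in no annotated exon, whereas that of Npas4 lies within one.
Egr2: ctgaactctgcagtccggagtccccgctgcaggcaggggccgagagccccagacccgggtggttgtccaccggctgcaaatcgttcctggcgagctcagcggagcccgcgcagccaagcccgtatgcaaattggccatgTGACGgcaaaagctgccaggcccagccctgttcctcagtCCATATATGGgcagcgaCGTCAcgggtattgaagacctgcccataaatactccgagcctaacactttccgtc
Egr4: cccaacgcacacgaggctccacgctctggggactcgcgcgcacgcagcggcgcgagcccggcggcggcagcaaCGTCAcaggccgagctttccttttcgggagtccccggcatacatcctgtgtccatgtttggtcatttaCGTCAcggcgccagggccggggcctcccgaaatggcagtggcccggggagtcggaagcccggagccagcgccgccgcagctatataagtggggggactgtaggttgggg
Nr4a1: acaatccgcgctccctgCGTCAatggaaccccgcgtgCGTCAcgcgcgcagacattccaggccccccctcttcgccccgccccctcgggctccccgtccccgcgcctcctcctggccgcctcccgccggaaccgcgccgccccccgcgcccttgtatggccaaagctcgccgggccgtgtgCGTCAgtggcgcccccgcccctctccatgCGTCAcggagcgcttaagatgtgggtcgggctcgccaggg
Nr4a2: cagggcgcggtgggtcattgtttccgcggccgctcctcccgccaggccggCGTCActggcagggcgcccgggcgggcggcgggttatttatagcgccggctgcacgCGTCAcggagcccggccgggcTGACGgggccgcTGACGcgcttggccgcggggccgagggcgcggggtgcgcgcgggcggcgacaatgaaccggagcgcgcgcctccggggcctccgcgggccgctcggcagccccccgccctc
Nr4a3: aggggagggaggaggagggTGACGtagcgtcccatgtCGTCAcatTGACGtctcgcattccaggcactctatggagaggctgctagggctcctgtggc
Npas4: cgttcgaCGTCAcgggaTGACGtcggaag

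Nr4a1, Nr4a2 and Nr4a3 held 4 CRE cores each, and Egr2, Egr4 and Npas4 2 each. In Npas4 the 2 cores began 179 and 169 bases before the RefSeq start, which lies 345 bases inside the GENCODE start. The complete palindrome TGACGTCA was in none of the 6 windows and in 1.55% of all windows. A CArG box, the element bound by SRF, began 72 bases before the start of Egr2, between its 2 CRE cores, and was in 1.47% of all windows. An EGR site (GCGTGGGCG or GCGGGGGCG) was found in the window of Nr4a1 alone, 60 bases before the start, close to a CRE core at 69 bases, and in 3.06% of all windows. The AP-1 site TGANTCA (6.75% of windows) and the NR4A monomer site AAAGGTCA (1.34%) were in none of the 6. Both strands were searched for each motif, and a match here is a match of letters only.

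Basal levels were compared between the genes as TPM, a share of all transcripts that accounts for transcript length. Arc had the highest level in all 6 libraries, at 142 ± 41.2 TPM (SD, n = 6), and Egr2, a factor better known from myelinating Schwann cells and hindbrain patterning, the lowest in all 6, at 1.51 ± 0.869 TPM. Egr1, the EGR factor most often used as a marker of neuronal activity, followed Arc at 74.8 ± 18.6 TPM. Egr3, which like Egr1 is needed for memory, stood at 70.6 ± 18.3 TPM. Among the nuclear receptor genes, Nr4a1 reached 68.2 ± 14.9 TPM, Nr4a3 55.1 TPM (37.9 to 68.2) and Nr4a2, also required for dopaminergic neurons of the midbrain, 43.4 ± 12.1 TPM. Egr4 was at 25.2 ± 2.97 TPM. Npas4, a factor selective to neurons that shapes inhibitory synapses, was at 12.9 ± 4.12 TPM, and Ier2 at 11.7 ± 3.07 TPM.

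Of the 9 pairs of neighbours in this order, 3 did not overlap over the libraries. Arc was above Egr1 (lowest 101 TPM against highest 99.5 TPM), Egr4 above Npas4 (21.6 against 17.6 TPM) and Ier2 above Egr2 (6.37 against 2.68 TPM). The levels of Egr1, Egr3, Nr4a1 and Nr4a3, by contrast, crossed each other, and each of these genes held ranks from 2 or 3 to 4 or 5 in different libraries. Nr4a3 exceeded Nr4a2 in each of the 6 libraries although their ranges overlapped. Npas4 and Ier2 also traded places, with Npas4 the higher in 4 libraries. Among 17071 genes with a mean normalized count of at least 10, Arc lay at the 93.3 percentile of TPM, Egr1 at 85.6, Npas4 at 46.2 and Egr2 at 11.7.

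**Figure D1:**
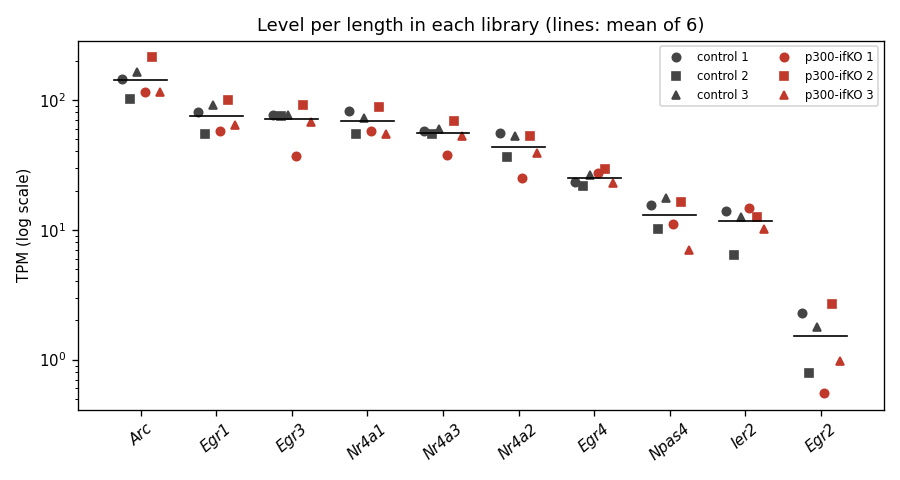
TPM on a log axis for each of the 10 activity genes in each of the 6 libraries, in the order of their means, with control mice in black, p300-ifKO mice in red and lines at the mean of 6. Arc sits at 101 to 212 TPM, above the highest Egr1 value of 99.5 TPM, and Egr2 sits lowest at 0.553 to 2.68 TPM.

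The 10 genes are spread over 9 chromosomes of GRCm38, in no case within another gene's exons or introns. Egr1 lies at chr18:34859823-34864984, Egr2 at chr10:67535475-67542188, Egr3 at chr14:70077203-70082614 and Egr4 at chr6:85511121-85513589. Nr4a1 lies at chr15:101254269-101274795, Nr4a2 at chr2:57106830-57124003 and Nr4a3 at chr4:48045153-48086447. Npas4 lies at chr19:4984355-4990316, Arc at chr15:74669083-74672570 and Ier2 at chr8:84661331-84662852. The GC content of the longest transcript ran from 47.9% for Nr4a2 to 68.2% for Egr4, and the exonic length from 1524 bases for Ier2 to 5987 for Nr4a3. Reads of 50 bases can be assigned to each gene: no exonic stretch of that length was shared with another gene except for 9 of 5986 in Nr4a3.

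The comparison of p300-ifKO with control mice asked whether the basal expression of the activity genes depends on p300. None of the 10 genes passed the threshold, in a table in which 0.0061% of all genes did, and none had an unadjusted p under 0.05, against 1.32% of all genes (DESeq2). The groups overlapped for each of the 10 genes. Among 17070 genes, p300-ifKO lay wholly above control for 4.09% and wholly below for 3.37%. The log2 fold change was above 0 for 4 activity genes and below 0 for 6, while 50.7% of all genes were below 0. Its median was -0.05 over the 10 genes and -0.01 over all genes. The edgeR quasi-likelihood test and limma-voom also called none and gave no unadjusted p under 0.05. A p that misses the threshold does not show equal levels. The 95% interval gives a range for the difference within the DESeq2 fit, which took no account of the length trend of the libraries. It lay within a 2-fold change in either direction for 9 of the 10 genes, the exception being Egr2.

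Among the EGR genes, Egr1 had 2365, 1641 and 2604 normalized counts in control mice and 1929, 2818 and 1929.7 in p300-ifKO mice. The highest and the lowest value thus belonged to different groups, p300-ifKO 2 and control 2, and the means were nearly level at 2204 ± 502 and 2226 ± 513 (SD, n = 3 each). Its log2 fold change was 0.01 (95% interval -0.43 to 0.46; DESeq2, adjusted p = 0.997) and turned to -0.01 with length and GC offsets.

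Egr3 had 2203, 2205 and 2134 normalized counts in control mice and 1202, 2548 and 2000.1 in p300-ifKO mice. Control values were close together, and p300-ifKO mice lay on both sides of them, with p300-ifKO 1 far below. On the log2 scale the difference was -0.19 (-0.67 to 0.30; adjusted p = 0.991, DESeq2). It changed to 0.06 when p300-ifKO replicate 1 was left out and to -0.44 when p300-ifKO replicate 2 was (unadjusted p = 0.0219, adjusted 0.103, DESeq2), and was -0.18 with offsets.

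Egr4 had 328, 311 and 359 normalized counts in control mice and 439, 397 and 329.8 in p300-ifKO mice. p300-ifKO 1 and p300-ifKO 2 were above all controls and p300-ifKO 3 among them, with means of 333 ± 24.4 and 389 ± 55.2 (SD). Egr4 thus had a log2 fold change of 0.22 (-0.11 to 0.56; DESeq2, adjusted p = 0.991), which was 0.02 with length and GC offsets.

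Egr2 was counted at 51, 17 and 38 reads in control mice and at 13, 65 and 23 in p300-ifKO mice. The reads alone allow a wide range: 13 reads have a 95% Poisson interval of 6.92 to 22.2 and 65 reads one of 50.2 to 82.8, which cover counting error only. p300-ifKO mice thus included both the lowest and the highest library. For Egr2 the log2 fold change was -0.19 (-1.34 to 0.96; DESeq2, adjusted p = 0.991), an interval that at this depth still holds a more than 2-fold lower level. With offsets the value for Egr2 was -0.20.

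**Figure D2:**
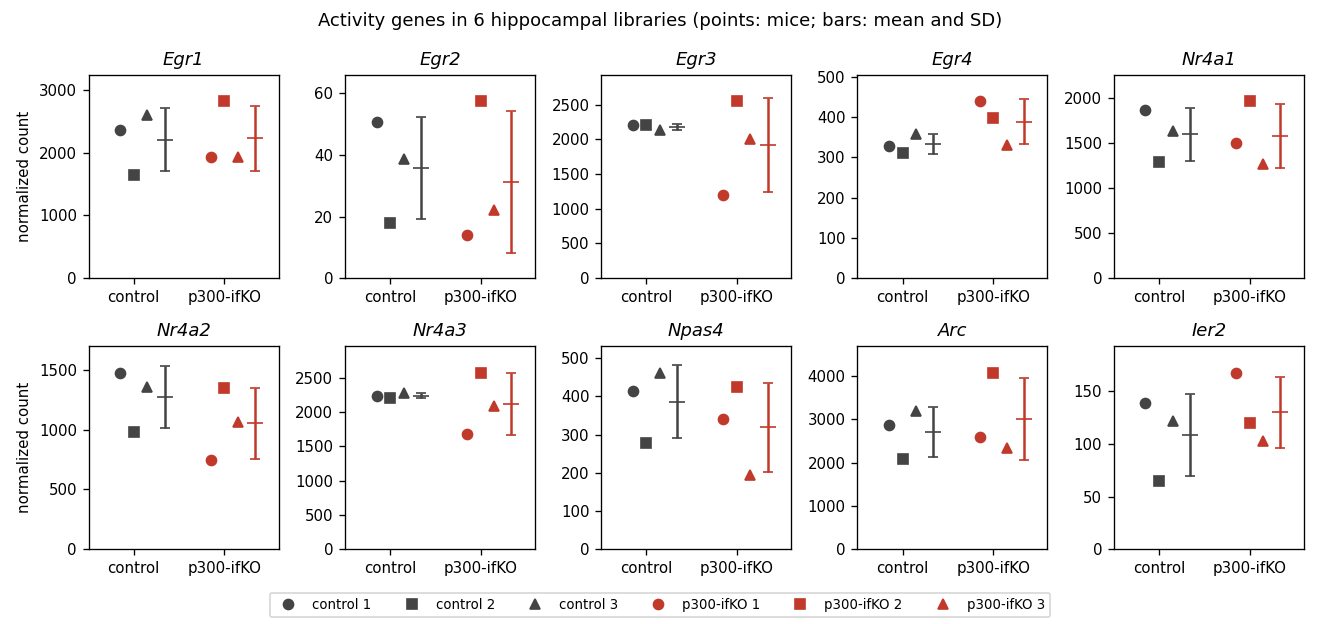
Normalized counts of each activity gene, from 0 on a linear axis, with 1 point per mouse (circle, square and triangle for replicates 1, 2 and 3; control black, p300-ifKO red) and the mean with SD of 3 mice as a bar. The groups overlap in all 10 panels, and p300-ifKO 2 (red square) is the highest library for 6 genes.

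Among the NR4A receptors, which are regulated by their amount rather than by a known ligand, Nr4a1 had 1866, 1288 and 1628 normalized counts in control mice and 1496, 1960 and 1270.1 in p300-ifKO mice. Both groups spanned nearly the same range, with means of 1594 ± 291 and 1575 ± 352 (SD). Nr4a1 had a log2 fold change of -0.02 (-0.43 to 0.40; DESeq2, adjusted p = 0.997), or -0.07 with offsets.

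Nr4a2 had 1476, 981 and 1354 normalized counts in control mice and 749.7, 1346 and 1059.9 in p300-ifKO mice. The lowest value was that of p300-ifKO 1, while p300-ifKO 2 lay just under the upper controls. Of the NR4A genes Nr4a2 had the lowest log2 fold change, at -0.27 (-0.75 to 0.20; DESeq2, adjusted p = 0.991). It was -0.25 with offsets, -0.02 with 1 surrogate variable and -0.49 without p300-ifKO replicate 2 (unadjusted p = 0.0184, adjusted 0.0948, DESeq2).

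Nr4a3 had 2238, 2206 and 2275 normalized counts in control mice and 1686, 2579 and 2091 in p300-ifKO mice. As for Egr3, the controls lay close together (SD 34.2) and the p300-ifKO mice spread around them (SD 447). Nr4a3 had a log2 fold change of -0.08 (-0.42 to 0.26; DESeq2, adjusted p = 0.991), which became 0.06 once p300-ifKO replicate 1 was left out and was -0.01 with offsets.

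Npas4 had 415, 279 and 462 normalized counts in control mice and 340.5, 423 and 193 in p300-ifKO mice. p300-ifKO 3 was the lowest library, and p300-ifKO 2 lay between the upper controls. This gave Npas4 a log2 fold change of -0.27 (-0.87 to 0.32; DESeq2, adjusted p = 0.991), and offsets one of -0.30.

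Arc had 2883, 2076 and 3198 normalized counts in control mice and 2602, 4085 and 2347 in p300-ifKO mice. The highest value, in p300-ifKO 2, was 1.97-fold the lowest, in control 2. Arc had a log2 fold change of 0.15 (-0.34 to 0.63; DESeq2, adjusted p = 0.991). Its sign rested on single libraries, the value being -0.13 when p300-ifKO replicate 2 was left out and -0.01 when control replicate 2 was. With offsets it was 0.07.

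Ier2, an early gene whose product is a nuclear protein, had 139, 65.1 and 122 normalized counts in control mice and 168, 120.2 and 103 in p300-ifKO mice. Its lowest library was control 2 and its highest p300-ifKO 1. For Ier2 the log2 fold change was 0.26 (-0.39 to 0.90; DESeq2, adjusted p = 0.991) and with offsets 0.04. Across the 10 genes, 7 changed sign when 1 library was left out, and Egr4, Nr4a2 and Npas4 kept it in each of the alternatives run, although the value came close to 0 in some of them.

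**Figure D3:**
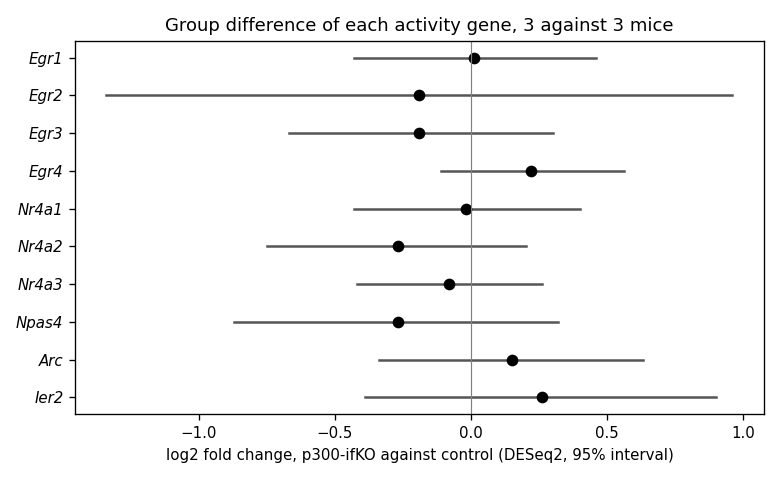
DESeq2 log2 fold change of p300-ifKO against control for each activity gene (points) with its 95% interval (lines), from 3 mice per group. Every interval includes 0, and Egr2 has the widest, from -1.34 to 0.96.

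The spread between mice of 1 group was then described, as the SD of log2 normalized counts around the group means. Its median over the activity genes was 0.37, against 0.22 over 17071 genes, and 19.4% of all genes reached the value of the activity genes. With length and GC offsets the medians were 0.37 and 0.18. The SD was above the median of all genes for 8 of the 10. Egr2 varied most (0.89, at the 94.4 percentile of genes of like level, whose mean was within 2-fold), followed by Npas4 (0.49, 96.7 percentile) and Ier2 (0.48, 90.9 percentile). Egr3 (0.39), Arc (0.38), Nr4a2 (0.37) and Egr1 (0.33) came next, each at the 89.8 percentile of genes of like level or above. Nr4a1 had an SD of 0.29. Egr4, by contrast, had the smallest at 0.17 and Nr4a3 one of 0.22, and with offsets the latter was 0.14.

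Most of the genes were high in the same mice, which came from both groups. Control 3 and p300-ifKO 2 had all 10 genes above their own mean over the libraries, and control 1 had 9. Control 2 had 2 genes above, p300-ifKO 1 had 3 and p300-ifKO 3 had 1. Egr4 and Ier2 were exceptions, as both were highest in p300-ifKO 1, where Egr2, Egr3, Nr4a2 and Nr4a3 were lowest. The mean log2 deviation of the 10 genes was 0.22, -0.31 and 0.19 in control 1, 2 and 3 and -0.22, 0.36 and -0.23 in p300-ifKO 1, 2 and 3. Thus 2 control mice and 1 p300-ifKO mouse lay above 0, the remaining 3 below, and no library between -0.22 and 0.19. With length and GC offsets the mean deviations kept this pattern, at 0.22, -0.27 and 0.23 in controls against -0.32, 0.39 and -0.25 in p300-ifKO mice. Recent activity of the mice was not recorded, and its part in these deviations was not tested.

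**Figure D4:**
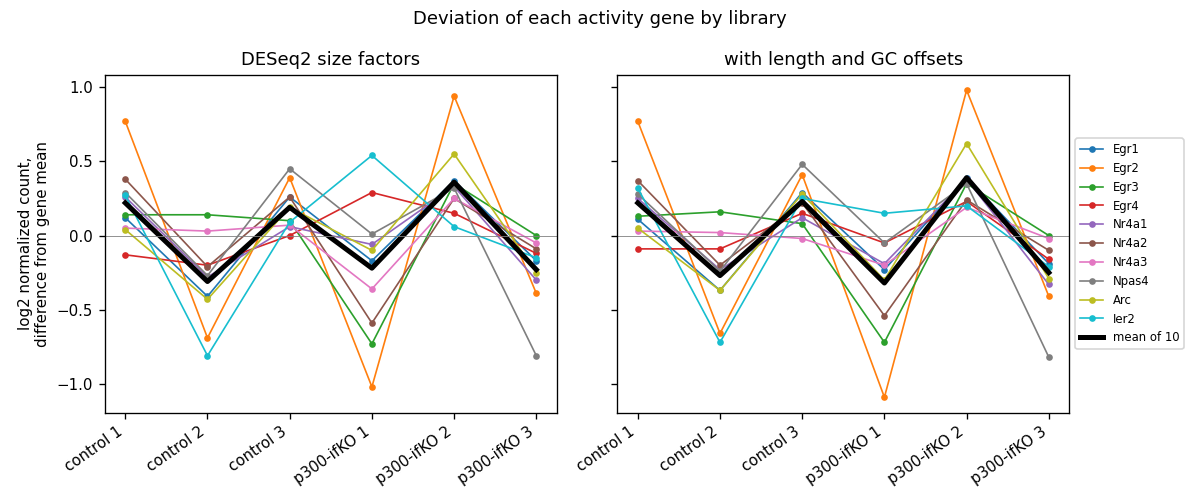
Log2 normalized count of each activity gene as the difference from its own mean over 6 libraries (coloured points and lines) with the mean of the 10 genes (black), with DESeq2 size factors on the left and with length and GC offsets on the right; the lines only connect the points of 1 gene and the libraries have no order. Control 1, control 3 and p300-ifKO 2 lie above 0 on average in both panels, and Egr4 and Ier2 in p300-ifKO 1 move closer to 0 on the right.

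Over the 45 pairs of genes, the median Pearson r of log2 normalized counts across the 6 libraries was 0.55, from -0.59 to 0.97, and 39 pairs were above 0. Over all pairs of 17071 genes the median was 0.00. Strong single pairs were not more frequent: 3 pairs (6.67%) had an r of at least 0.9, against 6.79% of all pairs of genes. With length and GC offsets the median was 0.73, against 0.03 over all pairs, and 6 pairs (13.3%) reached 0.9, against 4.43%. The pairs share libraries and genes and are not independent of each other. The mean deviations of the libraries fell into a higher and a lower set of 3, and within 3 libraries the relation cannot be tested. With 6 libraries the smallest possible two-sided exact p is 0.00139 for Pearson's r and 0.00278 for Spearman's rho, and no pair passed adjustment over the 45 pairs (smallest adjusted exact p 0.125), although 10 pairs had an unadjusted p under 0.05.

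Arc and Egr1 were among the closest pairs, with r = 0.96 (exact permutation p = 0.00556, adjusted 0.125) and rho = 0.94 (exact p = 0.0167, adjusted 0.29). Their r was 0.95 without the 2 libraries farthest from the median and 0.97 with offsets. Egr3 and Nr4a3 had r = 0.97 (exact p = 0.00833, adjusted 0.125) and rho = 0.77 (exact p = 0.103, adjusted 0.29), and r = 0.78 without the 2 farthest libraries. Egr2 and Nr4a2 had r = 0.94 (exact p = 0.00833, adjusted 0.125) and rho = 0.83 (exact p = 0.0583, adjusted 0.29), and r = 1.0 without the 2 farthest. Arc, Egr1, Nr4a1, Npas4 and Egr2, grouped here after their values were seen, had r from 0.62 to 0.96 with each other. Nr4a2 had r from 0.5 to 0.94 with each of these genes. Most pairs were above 0 (39 of 45), and none passed adjustment.

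Egr4 and Ier2, the genes with the shortest transcripts and the highest GC content, behaved differently. The lowest r of all pairs was that of Egr3 and Egr4, at -0.59 (exact p = 0.201, adjusted 0.431, rho = -0.37 with exact p = 0.497, adjusted 0.639, r = -0.26 without the 2 farthest libraries). With length and GC offsets it was 0.36. Egr4 with Arc went from r = 0.50 to 0.91 with offsets, and with Egr1 from 0.33 to 0.84. Ier2 remained below 0 with Egr3, at -0.51 before and -0.12 with offsets.

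**Figure D5:**
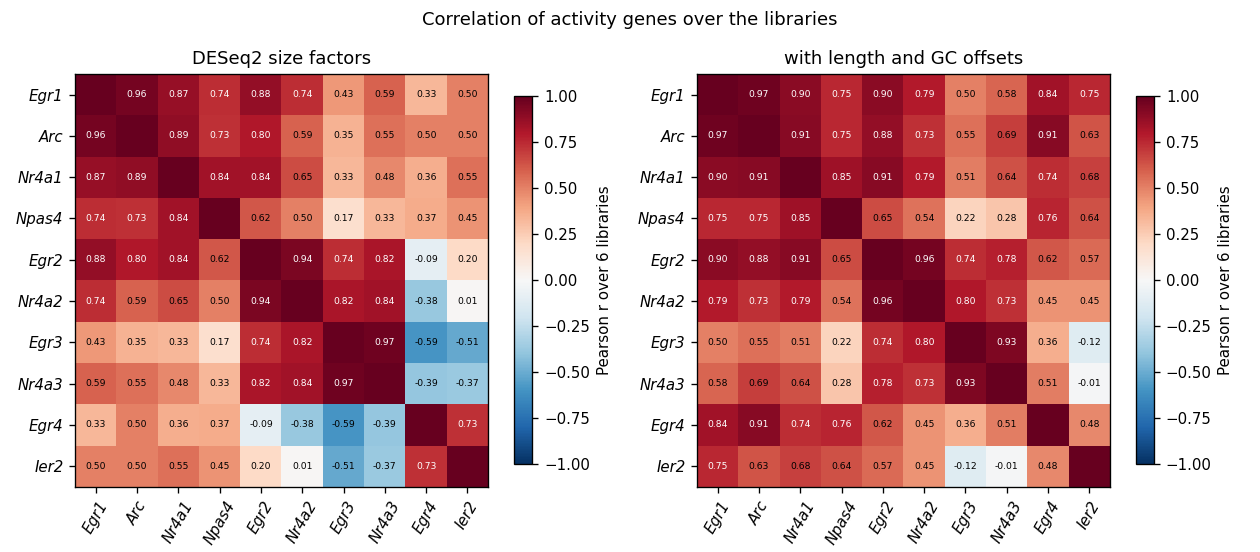
Pearson r over 6 libraries for each pair of activity genes, from -1 (blue) to 1 (red), with DESeq2 size factors on the left and length and GC offsets on the right. Negative values on the left are those of Egr4 with Egr2, Egr3, Nr4a2 and Nr4a3 and of Ier2 with Egr3 and Nr4a3, and on the right Ier2 with Egr3 (-0.12) and with Nr4a3 (-0.01) remain.

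The length trend of the libraries ran in the direction of 8 of the 10 genes, with r of 0.56 or above. For Nr4a3, the longest transcript, r with the trend was 0.91 (exact permutation p = 0.00139, adjusted over 10 genes 0.0139) and rho = 1.0 (exact p = 0.00278), and r = 0.72 without the 2 farthest libraries. Egr3 had r = 0.85 (exact p = 0.0139, adjusted 0.0695), with rho = 0.77 (exact p = 0.103) and r = 0.43 without the 2 farthest. Nr4a2 followed at 0.83 (exact p = 0.0319, adjusted 0.106) and Egr2 at 0.79 (exact p = 0.0736, adjusted 0.184), with rho of 0.71 (exact p = 0.136) and 0.89 (exact p = 0.0333) and r without the 2 farthest libraries of 0.42 and 0.55. Egr1 (0.63), Npas4 (0.61), Arc (0.57) and Nr4a1 (0.56) had adjusted exact p-values of 0.309, and Egr4 (-0.30) and Ier2 (-0.29) were below 0. After the offsets, r with the same trend was between 0.67 and 0.85 for 9 genes, Egr4 (0.68) included, and 0.15 for Ier2, so that the corrected values still ran with the trend.

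Genes outside the set whose pattern was most like the mean of the 10 activity genes were Mirt1 (r = 0.988 over 6 libraries), Celsr1 (0.981), Pld5 (0.980), Fos (0.974), Mmp14 (0.970), Cgn (0.968), Nrg4 (0.962) and Scyl3 (0.961), picked as the 8 highest of 13605 genes and therefore given without a test. Of those genes, 56 (0.412%) had an r of at least 0.9. With length and GC offsets 73 genes (0.537%) did. Fos then kept an r of 0.977, Celsr1 one of 0.970, Mmp14 one of 0.916 and Cgn one of 0.913. Mirt1, the nearest gene without offsets, had 0.649, Nrg4 0.731, Pld5 0.448 and Scyl3 0.594.

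Fos, the archetypal AP-1 activity gene, had 236, 113 and 300 normalized counts in control mice and 150.4, 357 and 137 in p300-ifKO mice. The mice high in Egr1 and Arc were the ones high in Fos, whereas the 2 groups differed by -0.01 ± 0.42 (SE) on the log2 scale (DESeq2, adjusted p = 0.997). This pattern was not shared by all AP-1 genes. For 4 of the 6, r with the mean pattern of the 10 activity genes was above 0 (median 0.53). Jun had -0.38 and Jund -0.33. Fosb, with 170, 124 and 177 normalized counts in controls against 109.5, 187 and 88.7 in p300-ifKO mice, had a log2 fold change of -0.28 ± 0.31 (adjusted p = 0.991, DESeq2). None of the 6 AP-1 activity genes was called, 2 being above 0 and 4 below, with log2 fold changes of 0.40 for Jund, 0.21 for Junb, -0.13 for Jun and -0.38 for Fosl2.

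Of 32 other activity genes, including phosphatases, growth factors and signalling enzymes, none was called by DESeq2, 14 being above 0 and 18 below, with a median log2 fold change of -0.04. Among those with a mean normalized count of at least 50, the highest were Dusp5 (0.34), a phosphatase that restrains ERK, Ier5 (0.31) and Gadd45b (0.22), and the lowest Pcsk1 (-0.49), a prohormone convertase, Inhba (-0.37) and Ptgs2 (-0.34), the inducible cyclooxygenase. Dusp5 alone had an unadjusted p under 0.05 (0.0158, DESeq2, adjusted 0.991), at 478, 486 and 536 normalized counts in controls against 689.5, 594 and 613 in p300-ifKO mice. Its groups did not overlap, as for 4.09% of all genes in that direction. Across the 32 genes, r with the mean pattern of the 10 activity genes had a median of 0.3. It was above 0 for 23 of them and at least 0.9 for 1. Neither this count nor that of the AP-1 genes was particular to activity genes. Values of r were above 0 for 17 of 23 partners and regulators, 6 of 7 endothelial and 5 of 7 astrocyte markers (median 0.5). They were above 0 for 1 of 7 oligodendrocyte and 0 of 5 blood markers.

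Of 23 partners and regulators of the activity genes, 6 were above 0 and 17 below, with a median log2 fold change of -0.12, and none was called by DESeq2. Of all genes, 50.7% were below 0. With length and GC offsets 10 of the 23 were above 0 and 13 below, and with 1 surrogate variable 9 and 14. Within the same limit on counts, the highest were Rxrb (0.22), a retinoid X receptor with which NR4A1 and NR4A2 can pair, Nab2 (0.15), a corepressor of EGR proteins, and Crem (0.12), a relative of CREB. The lowest were Ep300 itself (-0.97), Srf (-0.27) and Mef2d (-0.26), all 3 lowest in p300-ifKO 1. Without p300-ifKO replicate 2, Ep300 (-1.36), Mef2d (-0.40) and Arnt2 (-0.39), a partner of NPAS4, passed the threshold (adjusted p = 0.000356, 0.0374 and 0.0451 in DESeq2), as did Fosl2 (-0.61, adjusted p = 0.0433) among the AP-1 genes. In that fit 938 of the 11129 genes with an adjusted p were called, instead of 2 in the whole table. No activity gene of the 10 was among them (lowest adjusted p 0.0948, for Nr4a2, with none given for Egr2 and Ier2). Of the 10, Egr3 and Nr4a2 had an unadjusted p under 0.05, as had 4091 of the 32019 genes tested. With 1 surrogate variable, Ep300 was called at a log2 fold change of -0.49 (adjusted p = 0.00322, DESeq2).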

How the data were processed

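RNA from the hippocampus of 6 mice was sequenced by the authors as single-end 50 bp reads, with 1 library per mouse and the groups taken from the sample titles. The deposited values were raw counts per gene. The authors trimmed reads with Trim Galore (0.6.4), aligned them with STAR (2.6.1) to GRCm38, discarded reads of low mapping quality, which loses reads that match several places, and used Rsubread to count reads over Ensembl exons. Whether counting used strand is not given in the sources used here, but the 10 genes overlap no other gene.

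Symbols and coordinates came from GENCODE M21, matched by identifier for 55230 of 55471 genes (99.57%). Groups were compared with the two-sided Wald test of DESeq2 (version 1.42.0, R 4.3.3, the tool the study names) with no covariate, adjusted by Benjamini-Hochberg over 32773 genes, with a threshold of 0.05. Dividing a count by the size factor of its library gave the normalized count. TPM was computed from the deposited exonic lengths. Correlations used log2(normalized count + 1), with exact two-sided permutation over 6 libraries. Length and GC offsets per library were fitted with mgcv (1.9.3) on genes with a mean normalized count above 10. Alternatives were edgeR (4.0.16), limma-voom (3.58.1), TMM factors, other filters, a threshold of 0.1, a pseudocount of 5, 1 surrogate variable from sva (3.50.0), a block for the replicate number and fits without each library in turn. The fits were tested on simulated data. Motifs were sought in RefSeq promoter windows of GRCm38.p6.

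The genes of the set and the gene lists were chosen with earlier results of these data known. Genes to be named were the 10 members, Ep300, Esr1, Arsi, Fos, Fosb and Junb, in the lists of activity genes and partners any gene called by DESeq2 and the 3 highest and 3 lowest log2 fold changes among genes with a mean normalized count of at least 50, and the 8 genes nearest to the mean pattern. Arnt2 and the markers Gfap, Aldh1l1, Slc1a2, Slc1a3, Cx3cr1, P2ry12, Csf1r, Plk5, Lct, Stxbp6, Gad1 and Pecam1 were named after their values were seen. Apart from these markers, marker lists are given by their sums and by counts of called genes.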

Additional observations from a re-analysis of the deposited data

How the results depend on the processing

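No activity gene of the 10 was called under any of the alternatives run (0 in each fit). Signs and sizes did move. With length and GC offsets Egr1 was at -0.0144 on the log2 scale, and Egr4 (0.0206), Ier2 (0.0351), Arc (0.0654) and Nr4a3 (-0.00926) came nearer to 0. With 1 surrogate variable Egr2 was at 0.261, Egr3 at 0.0918, Nr4a1 at 0.0934 and Nr4a3 at 0.0996, Nr4a2 at -0.016, and 1 partner gene, Ep300, was called instead of 0. When each library was left out in turn, log2 fold changes ranged from -0.189 to 0.155 for Egr1, -0.98 to 0.154 for Egr2, -0.442 to 0.0591 for Egr3, 0.126 to 0.329 for Egr4, -0.202 to 0.117 for Nr4a1, -0.486 to -0.08 for Nr4a2, -0.243 to 0.0588 for Nr4a3, -0.531 to -0.0125 for Npas4, -0.133 to 0.299 for Arc and -0.00582 to 0.474 for Ier2. Called genes then numbered 0 to 1 of the AP-1 and other activity genes together (Fosl2, an AP-1 gene) and 0 to 3 of the partners, each time highest without p300-ifKO replicate 2. The value of Ep300 was between -1.36 and -0.659. The median r of the 45 pairs was between 0.53 and 0.77, the highest without p300-ifKO replicate 1, and around the group means it was 0.62. The median SD was between 0.29 and 0.41, and 3 to 4 neighbours in level did not overlap. The cause of these moves was not tested.

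With a replicate block 0 of the 10 genes were called, and 4 genes in the whole table instead of 2. Mice of the same number did not deviate together, with correlations of 0.27, -0.28 and 0.13, and not every library correlated best with its own number, so the numbers were not treated as pairs. Depth limits Egr2, at 13 to 65 reads per library, most. Of 257 values under alternatives, 232 were classed as the same, 19 as reversed, 5 as stronger and 1 as moved. The values include log2 fold changes, counts of called genes, spread, covariation and the order of levels. A value classed as the same could still shift in size, as did Egr4, from 0.223 to 0.0206 with length and GC offsets.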
